A study of Mus musculus with 4 samples.

Results

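The HOX genes were examined in 4 libraries of polyadenylated RNA from mouse endometrium, which lines the uterus, taken at proestrus, the phase of the cycle before ovulation. The members were all genes whose symbol names a HOX cluster (a to d) and a paralog number, which gave 34 of the 28545 genes in the deposited tables: 11 in the HOXA cluster, 8 in HOXB, 7 in HOXC and 8 in HOXD. Hoxb1, Hoxb13, Hoxc12, Hoxc13 and Hoxd13 were not analysed here. The 2 control libraries are titled SMAD7fl/fl with the treatment given as blank, and the design text calls the controls WT. The other 2 are titled SMAD7 Cre+/- with the treatment CKO; Cre recombinase cuts between loxP sites, which had been placed in Smad7 by Cas9 in fertilized eggs, and the design text calls these mice SMAD7 knockout. Tissue is given as endometrium in the labels and as uterine tissue in the design text. The sources used here do not give the Cre line, the cells in which it acts, the exons between the loxP sites, the strain or the ages. They do not say that libraries came from separate animals either, so every p-value reflects library-to-library spread that may be technical.

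HOX genes encode transcription factors that bind DNA through a homeodomain. They lie in 4 clusters, and genes in the same place in different clusters form numbered paralog groups. On the build GRCm38 HOXA lies on chromosome 6, and the members of the other clusters span chr11:96271457-96354012 (HOXB), chr15:102954427-103036852 (HOXC) and chr2:74675013-74765142 (HOXD). Low numbers are used towards the head of the embryo and high numbers towards the tail. The female reproductive tract is patterned along its length by genes of the high-numbered groups: Hoxa9 marks the oviduct, Hoxa10 the uterus, Hoxa11 the lower uterus and cervix, and Hoxa13 the vagina. Hoxa10 and Hoxa11 are also needed in the adult uterus for implantation and decidualization.

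Total counts ran from 17444368 to 22950532 per library. The floxed libraries were less alike than the Cre libraries (Spearman correlation over genes 0.908 and 0.985, biological coefficient of variation 0.403 and 0.163). Smad7, an inhibitor of TGF-beta signalling, was itself higher in the libraries labelled Cre, at 49.9 and 33.9 FPKM (read count scaled to gene length and to the total count of the library). In those labelled floxed it stood at 7.79 and 7.81 FPKM. The counts of the whole gene thus show no loss of Smad7 RNA under the knockout label. They do not show whether exons were removed, so the labels could not be checked. Every direction below is that of the library labelled Cre relative to the library labelled floxed. Markers of stroma and epithelium were read, and all 8 and all 8 of them were detected. Their summed levels were 1527 to 1928 and 727.5 to 1130 FPKM per library. These markers are not particular to endometrium, so their detection cannot tell it from neighbouring tissues. Smooth muscle, mesothelium, and oviduct and ovary markers were higher in the Cre libraries and leukocyte markers lower; their values stand beside the HOX results.

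The HOX genes with the highest levels in these samples belonged to paralog groups 6 to 11. Of the 34 members, 8 had a mean level of at least 10 FPKM over the 4 libraries and together held 83.7% of the summed HOX level. Hoxa10 was the most abundant, at 101 and 56.0 FPKM in the floxed libraries and 57.4 and 52.9 FPKM in the Cre libraries. Its lowest level lay above the highest level of any other member. Hoxa11, next in the cluster, followed at a mean of 29.5 FPKM, with Hoxd9 at 28.7, Hoxb6 at 28.4, Hoxb7 at 23.8, Hoxd10 at 23.4, Hoxb8 at 21.4 and Hoxd8 at 15.1 FPKM. Behind these came Hoxa9 at a mean of 8.72, Hoxd11 at 6.65, Hoxb4 at 4.26 and Hoxc6 at 3.66 FPKM. Neighbours in this order mostly did not differ beyond their spread: the ranges over the 4 libraries overlapped in 8 of the 11 neighbouring pairs among the 12 highest members, and they were separate only between Hoxa10 and Hoxa11, Hoxb8 and Hoxd8, and Hoxd8 and Hoxa9.

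Members at the ends of the HOXA and HOXD clusters were scarce. Hoxd1, Hoxd3 and Hoxd12 had mean levels of 0.0136, 0.189 and 0.0043 FPKM, and Hoxa13, the vaginal member, had 0.267 FPKM. Hoxd1 and Hoxd12 together had 3 counts over all libraries, under the limit that a count of 3 in each library sets (0.127 to 0.173 CPM, counts scaled to library size), so no difference was detectable at this depth. The HOXC cluster was used least among the clusters, with 1.64% and 1.79% of the summed HOX level in the floxed libraries, and 5.13% and 5.33% in the Cre libraries.

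**Figure D1:**
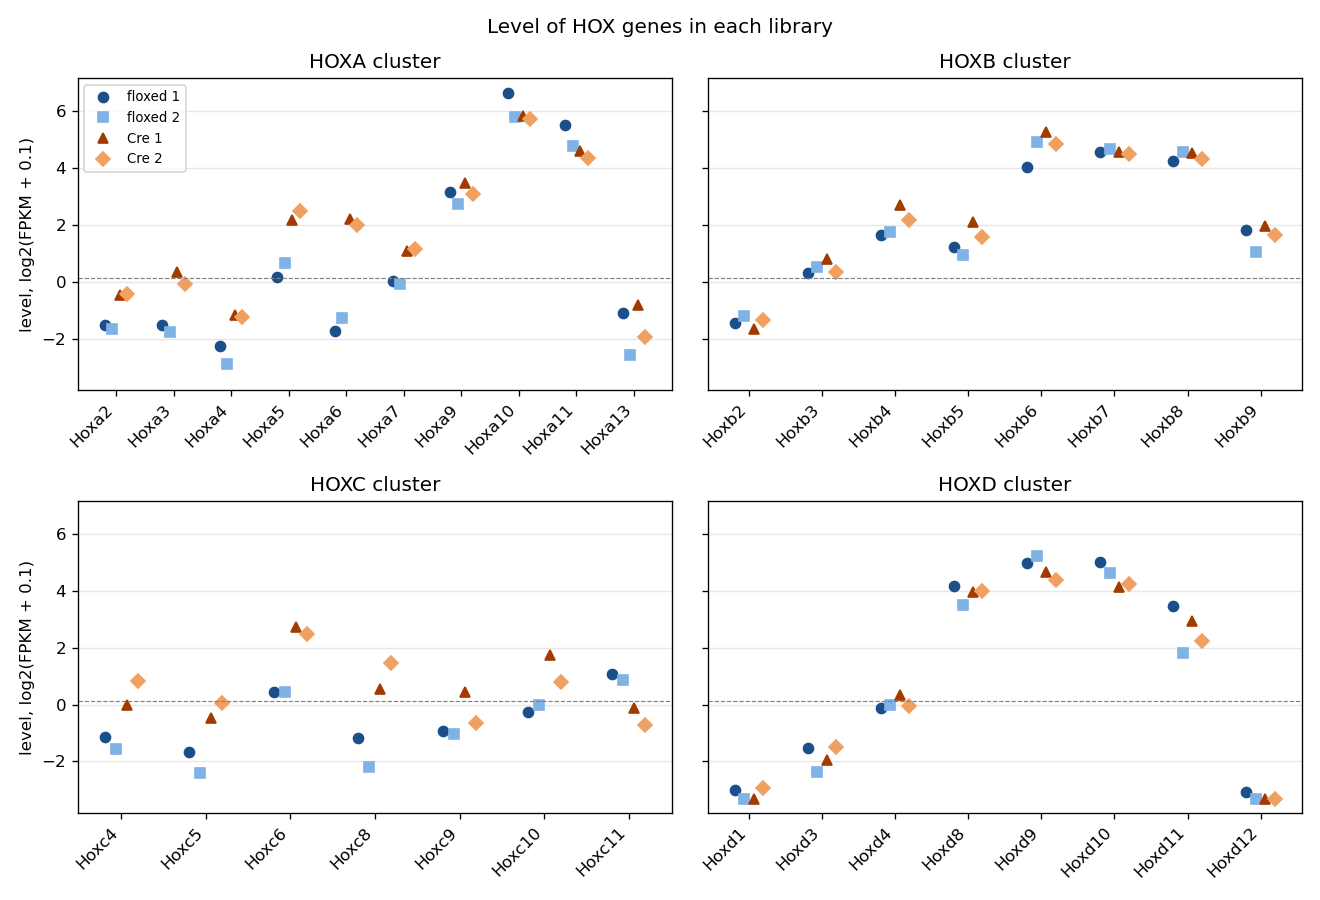
Level of HOX genes in each library, as log2(FPKM + 0.1), by cluster and in order of paralog number; each marker is 1 library and the dashed line is 1 FPKM. Hoxa10 stands highest at 52.9 to 101 FPKM, and the triangles and diamonds of the Cre libraries lie above both floxed libraries for Hoxa2 to Hoxa7 and for Hoxc4 to Hoxc10.

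Between the groups, Hoxa2 to Hoxa7 and Hoxc4 to Hoxc10 were higher in both Cre libraries than in both floxed libraries, and Hoxa11, Hoxc11, Hoxd9 and Hoxd10 were lower. No member passed the test across all genes: edgeR's quasi-likelihood test called 0 of the 21 members tested and 0.0% of all 13513 genes at an adjusted p under 0.05, and the lowest adjusted p of a member was 0.103. At an unadjusted p under 0.05, 6 of the 21 were higher (28.6%) and 2 lower (9.52%), where 7.3% of all genes tested were higher and 6.58% lower. The 6 were Hoxa5, Hoxa6, Hoxa7, Hoxc6, Hoxc8 and Hoxc10, and the 2 were Hoxc11 and Hoxd10. Of these 8, Hoxa6, Hoxa7, Hoxc8 and Hoxc10 reached the minimum mean of 1 FPKM through the Cre libraries alone and Hoxc11 through the floxed libraries alone, and such genes had to differ to be tested. The counts therefore describe the members and lend them no support. The median log2 fold change was 0.34 over the 21 members tested and -0.033 over all genes tested. It was 0.14 over the 16 that reached the minimum in both groups, a selection made after the data were seen.

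The groups were also compared without the filter, by bands of paralog groups chosen after the values were seen. Among the 32 members with at least 10 counts in all, the groups did not overlap for 14 that were higher (43.8%) and 5 that were lower (15.6%), against 27.5% and 21.3% of all genes with as many counts. Of the 15 members of paralog groups 4 to 8, 10 were higher without overlap and 0 lower. Of the 12 members of paralog groups 9 to 13, 2 were higher, Hoxc9 and Hoxc10, and 5 lower, Hoxa10, Hoxa11, Hoxc11, Hoxd9 and Hoxd10. The separation of Hoxa10 was slight, since its lowest floxed value was 190.9 CPM and its highest Cre value 189.2 CPM, and on the deposited FPKM its groups overlapped. Over the 21 members tested, the log2 fold change and the paralog number had a Spearman correlation of -0.63, and over the 32 members of -0.36. Without floxed replicate 1 it was -0.41 over the 21. These points share the same 4 libraries and lie next to each other in clusters, so the correlations are a description only.

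**Figure D2:**
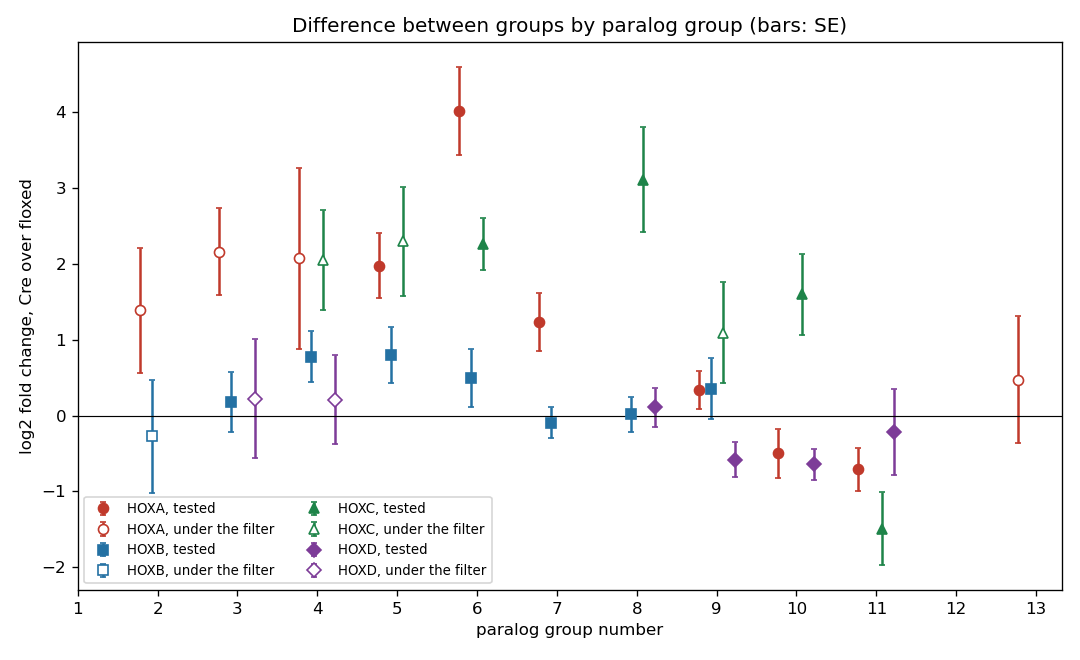
Log2 fold change of the Cre over the floxed libraries with its SE, against the paralog group number, for members with at least 10 counts. Filled markers are members tested after the filter on level and open markers are members under it, fitted without the filter; HOXA and HOXC members of groups 2 to 8 lie above 0, up to 4.01 for Hoxa6, and Hoxa10, Hoxa11, Hoxc11, Hoxd9 and Hoxd10 lie below.

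In the HOXA cluster, 6 of 11 members were higher without overlap and 2 lower, beside 27.5% and 21.3% of all genes with at least 10 counts. Hoxa6, which acts in patterning of the trunk skeleton, had 4 and 5 counts in the floxed libraries and 79 and 59 in the Cre libraries, or 0.199 and 0.314 FPKM against 4.56 and 3.87 FPKM. Both Cre libraries stood far above both floxed libraries, and the ratio of counts was 16.9 with an exact 95% counting interval from 8.67 to 37.9. With any single library left out the ratio stayed between 12.9 and 21.8. On the log2 scale the fold change of Hoxa6 was 4.01 ± 0.58 (SE; edgeR adjusted p 0.103). Hoxa5, a regulator of lung and of mesenchyme, stood at 1.02 and 1.49 FPKM in the floxed libraries and at 4.43 and 5.53 FPKM in the Cre libraries. Its groups were apart, with a log2 fold change of 1.98 ± 0.43 (SE) and an adjusted p of 0.167. Hoxa7 stood at 0.924 and 0.841 against 2.03 and 2.11 FPKM, and the antisense gene Hoxaas3 overlaps 20.4% of its exon bases, so its level was uncertain. The log2 fold change of Hoxa7 was 1.23 ± 0.38 (SE), between those of its neighbours Hoxa6 and Hoxa9.

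Hoxa2, Hoxa3 and Hoxa4, at the start of the cluster, had low levels in all libraries and were also higher in the Cre libraries. Hoxa3 had 34 and 21 counts in the floxed libraries and 141 and 90 in the Cre libraries, a ratio of 4.64 with a counting interval from 3.45 to 6.35. Hoxa2 had 10 and 7 against 22 and 20 counts, and Hoxa4 had 4 and 1 against 11 and 9 counts. The groups of these 3 genes did not overlap, but Hoxa2, Hoxa3 and Hoxa4 share 15%, 27.1% and 16% of their exon bases with other genes.

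Of the high-numbered HOXA genes, Hoxa9 stood at 8.90 and 6.54 FPKM in the floxed libraries and at 11 and 8.43 FPKM in the Cre libraries, and the groups overlapped (log2 fold change 0.34 ± 0.25 SE). Hoxa10 had a log2 fold change of -0.50 ± 0.32 (SE, adjusted p 0.534), and its 2 floxed libraries differed by more than that, by 0.76 on the log2 scale. Without floxed replicate 1 the fold change of Hoxa10 was -0.073, and without floxed replicate 2 it was -0.84. Hoxa11 stood at 45.7 and 27.5 FPKM in the floxed libraries and at 24.2 and 20.4 FPKM in the Cre libraries. Both Cre libraries were lower, with a log2 fold change of -0.71 ± 0.28 (SE) and an adjusted p of 0.367, and it was -0.35 without floxed replicate 1 and -1.00 without floxed replicate 2. Hoxa11 shares 35.0% of its exon bases with its antisense partner Hoxa11os, and the library kit, per the labels, is not described as keeping strand, so reads in the shared bases cannot be told apart. Hoxa11os was lower as well, at 176 and 151 against 66 and 53 counts (log2 fold change -1.33, unadjusted p 0.014). Hoxa13 had 21 and 3 against 23 and 7 counts, so in each group replicate 1 held more, and the groups overlapped.

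Promoter sequences were compared for Hoxa5 and Hoxa6, which were higher, and for the abundant Hoxa10 and Hoxd10, which were lower on scaled counts. The direction of Hoxa10 was weak, since its groups overlapped on FPKM and its log2 fold change was -0.073 without floxed replicate 1. The stretches are the bases before the RefSeq start site on GRCm38.p6 that lie in no annotated exon, written 5′ to 3′ on the strand of the gene, with TAAT or its complement ATTA, the core that most homeodomains bind, in capitals. The stretch of Hoxa5 is chr6:52204588-52204837 and that of Hoxa6 is chr6:52208723-52208922, which ends 50 bases before the RefSeq start. The stretch of Hoxa10 is chr6:52240855-52241104, and these 3 genes lie on the minus strand. Hoxd10 lies on the plus strand, with the stretch chr2:74691641-74691890.
Hoxa5: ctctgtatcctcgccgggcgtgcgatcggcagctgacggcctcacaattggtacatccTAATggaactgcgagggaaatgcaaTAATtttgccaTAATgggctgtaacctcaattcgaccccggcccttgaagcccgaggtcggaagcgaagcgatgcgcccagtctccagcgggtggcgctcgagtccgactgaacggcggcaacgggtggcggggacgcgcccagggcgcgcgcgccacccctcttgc
Hoxa6: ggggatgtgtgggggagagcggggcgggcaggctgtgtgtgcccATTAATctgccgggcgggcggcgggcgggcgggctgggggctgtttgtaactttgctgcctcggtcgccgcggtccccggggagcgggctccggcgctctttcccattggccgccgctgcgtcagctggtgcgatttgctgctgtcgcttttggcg
Hoxa10: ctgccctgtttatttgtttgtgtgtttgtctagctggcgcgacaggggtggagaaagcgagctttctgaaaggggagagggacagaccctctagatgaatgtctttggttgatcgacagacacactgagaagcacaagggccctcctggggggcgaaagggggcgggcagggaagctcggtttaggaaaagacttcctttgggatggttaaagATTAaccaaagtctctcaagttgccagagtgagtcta
Hoxd10: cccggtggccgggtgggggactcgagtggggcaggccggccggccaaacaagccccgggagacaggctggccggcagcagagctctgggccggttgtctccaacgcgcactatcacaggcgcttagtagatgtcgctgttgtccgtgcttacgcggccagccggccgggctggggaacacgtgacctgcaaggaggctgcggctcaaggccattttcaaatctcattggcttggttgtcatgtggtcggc
The core occurred 3 times before Hoxa5, in 2 overlapping copies before Hoxa6, 1 time before Hoxa10 and 0 times before Hoxd10. It is common, since 54.9% of all promoters in the RefSeq table hold it in 250 bases and 47.0% in 200 bases. The HOX-PBX motif TGATTNAT, the SMAD palindrome GTCTAGAC and the SMAD-bound motif GGCGCC were found in none of the 4 stretches on either strand. Of all promoters, 2.82%, 0.167% and 9.59% hold them in 250 bases. In the last 200 bases before the start the shares were 2.23%, 0.107% and 8.43%. The stretch of Hoxa6 has 200 bases but ends 50 bases earlier than those windows. TGATTNAT can overlap ATTA, and the other motifs cannot. The stretch of Hoxa5 had a GC content of 63.6%, Hoxa6 71.0% and Hoxd10 65.6%, above that of Hoxa10 at 51.6%. The median of all promoters was 52.4% over 250 bases and 53.0% over the last 200 bases. The presence of these letters is a description of the windows and not of binding.

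HOXC had the largest log2 ratio of summed levels among the clusters. Its summed level was 5.36 and 4.71 FPKM in the floxed libraries and 14.9 and 13.5 FPKM in the Cre libraries, a log2 ratio of 1.49 where libraries of a group varied by 0.12 (SD). A two-sided exact permutation test of the sums returned p = 0.333, and 2 libraries against 2 can go no lower. Hoxc6, a regulator of trunk and limb-level patterning and the member of the cluster with the highest mean over all libraries, stood at 1.27 and 1.26 FPKM in the floxed libraries and at 6.62 and 5.5 FPKM in the Cre libraries. Its groups lay far apart and its floxed libraries were nearly equal; in both floxed libraries Hoxc11 was higher than Hoxc6. The fold change of Hoxc6 was 2.26 ± 0.34 (SE) on the log2 scale (edgeR adjusted p 0.106). Hoxc8, which acts in patterning of the trunk, had 22 and 6 counts in the floxed libraries and 76 and 130 in the Cre libraries. All libraries of Hoxc8 were low, yet the Cre libraries held more, with a ratio of 8.13 (counting interval 5.46 to 12.5) and 6.05 to 16.5 with 1 library left out. The log2 fold change of Hoxc8 was 3.11 ± 0.69 (SE), with an adjusted p of 0.177.

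Of the remaining HOXC genes, Hoxc4 had 21 and 11 counts in the floxed libraries and 46 and 75 in the Cre libraries, and Hoxc5 had 15 and 5 against 38 and 51. Both were higher without overlap, in ratios of 4.18 (2.81 to 6.38) and 4.92 (3.0 to 8.44). Hoxc10, a posterior gene of hindlimb level, stood at 0.730 and 0.893 FPKM in the floxed libraries and at 3.28 and 1.65 FPKM in the Cre libraries (log2 fold change 1.60 ± 0.54 SE, adjusted p 0.298), and the fold change was 1.01 without Cre replicate 1. Hoxc9 had 24 and 17 against 61 and 23 counts. For Hoxc9 and Hoxc10 the excess was mainly in Cre replicate 1, while for Hoxc4, Hoxc5 and Hoxc8 it was larger in Cre replicate 2. Hoxc11, at the high end of the cluster, went the other way, at 2.03 and 1.74 FPKM in the floxed libraries and 0.823 and 0.511 FPKM in the Cre libraries. The Hoxc11 groups did not overlap, with a log2 fold change of -1.49 ± 0.48 (SE) and an adjusted p of 0.291.

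HOXB held 21.2% and 33.4% of the summed HOX level in the floxed libraries and 34.9% and 32.8% in the Cre libraries. Its summed level was 69.1 and 88.1 FPKM against 101 and 82.8 FPKM, so the groups overlapped (log2 ratio 0.23, exact permutation p = 0.667). Leaving out floxed replicate 1 or 2 gave a ratio of 0.056 or 0.41, and leaving out Cre replicate 1 or 2 gave 0.086 or 0.38. Hoxb7 stood at 23.6 and 25.5 FPKM in the floxed libraries and at 23.8 and 22.4 FPKM in the Cre libraries. Hoxb8 stood at 19.0 and 23.4 against 23.0 and 20.1 FPKM. In both of these abundant genes the groups overlapped and the fold changes were within their errors, at -0.092 ± 0.21 and 0.015 ± 0.23 (SE) on the log2 scale. Hoxb6 depended on which floxed library was compared, at 16.5 and 30.4 FPKM against 38.2 and 28.6 FPKM. Its log2 fold change was 0.49, and it was 0.084 without floxed replicate 1 and 1.06 without floxed replicate 2. Hoxb4 and Hoxb5 were higher without overlap: Hoxb4 stood at 3.02 and 3.26 against 6.35 and 4.42 FPKM, and Hoxb5 at 2.24 and 1.82 against 4.16 and 2.86 FPKM. Their log2 fold changes were 0.78 and 0.80, with adjusted p-values of 0.393 and 0.418, and they were 0.48 and 0.49 without Cre replicate 1. Hoxb9, Hoxb3 and Hoxb2 overlapped between groups, and Hoxb3 shares 52.9% of its exon bases with Hoxb3os.

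In HOXD, Hoxd9 and Hoxd10 were lower without overlap, and 0 members were higher without overlap. Of all genes with at least 10 counts, 21.3% were lower and 27.5% higher without overlap. The summed HOXD level was 93.4 and 77.8 FPKM in the floxed libraries and 67.3 and 61.1 FPKM in the Cre libraries, a log2 ratio of -0.41 where libraries of a group varied by 0.15 (SD; exact permutation p = 0.333). Hoxd10, which with Hoxa10 belongs to the paralog group that patterns the lumbar and sacral level, stood at 32.1 and 25.0 FPKM in the floxed libraries and at 17.8 and 18.7 FPKM in the Cre libraries. Both Cre libraries were lower and close to each other, with a log2 fold change of -0.64 ± 0.21 (SE) and an adjusted p of 0.286. Hoxd9 stood at 31.3 and 37.2 against 25.2 and 20.9 FPKM, again without overlap (-0.58 ± 0.23 SE, adjusted p 0.365). Hoxd8 overlapped, at 17.9 and 11.2 against 15.5 and 15.8 FPKM. Hoxd11 was uneven within both groups, at 11 and 3.42 against 7.58 and 4.63 FPKM, and replicate 1 was higher in each. The direction of Hoxd11 turned with the library left out, from -0.81 without floxed replicate 2 to 0.79 without floxed replicate 1. Hoxd3 and Hoxd4 share 62.8% and 52.3% of their exon bases with other genes, and their groups overlapped.

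Summed over clusters, the low and middle paralog groups were higher in the Cre libraries and the high-numbered groups lower, though not within every cluster. Groups 9 to 13 summed to 237 and 161 FPKM in the floxed libraries and to 153 and 132 FPKM in the Cre libraries, while groups 4 to 8 summed to 87.4 and 101 FPKM against 133 and 118 FPKM. Groups 1 to 3, at low levels, summed to 2.25 and 2.19 FPKM against 3.895 and 3.275 FPKM. The libraries of the groups did not overlap in any of these sums, and each exact permutation test gave p = 0.333. As a share of the HOX level, groups 4 to 8 held 26.8% and 38.3% in the floxed libraries and 45.9% and 46.5% in the Cre libraries. The floxed libraries differed from each other by more than floxed replicate 2 differed from either Cre library. The summed level of all HOX genes overlapped, at 327 and 264 against 290 and 253 FPKM. Within single clusters, groups 4 to 8 of HOXA summed to 2.25 and 2.68 FPKM against 11.4 and 11.8 FPKM, and those of HOXC to 2.17 and 1.70 FPKM against 9.49 and 10.8 FPKM. In HOXB and HOXD, which held most of the level of this band, the libraries of the groups overlapped. Groups 4 to 8 of HOXB summed to 64.3 and 84.5 FPKM against 95.6 and 78.3 FPKM. Those of HOXD summed to 18.7 and 12.1 FPKM against 16.65 and 16.65 FPKM. Groups 9 to 13 were lower without overlap in HOXD alone, at 74.4 and 65.6 FPKM against 50.5 and 44.2 FPKM. In HOXA they overlapped, at 156 and 90.1 FPKM against 93.05 and 81.9 FPKM. They also overlapped in HOXB and HOXC, where the log2 ratios were 0.39 and 0.30. Groups 1 to 3 were higher without overlap in HOXA alone, at 0.589 and 0.433 FPKM against 1.90 and 1.53 FPKM, and overlapped in HOXB and HOXD.

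**Figure D3:**
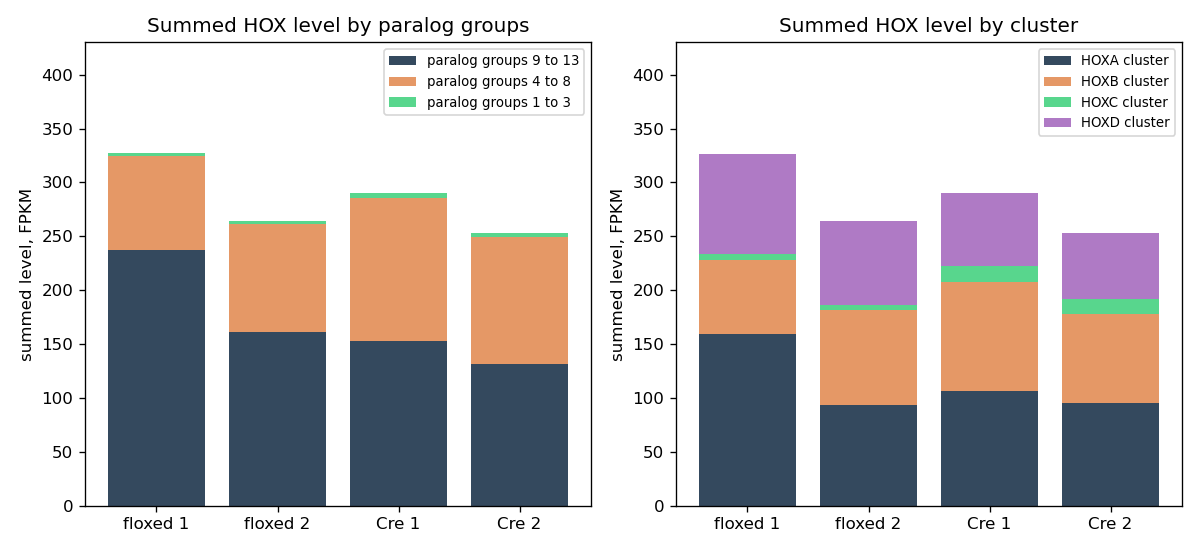
Summed level of HOX genes in FPKM in each library, stacked by paralog groups on the left and by cluster on the right. The part from groups 4 to 8 is larger in the Cre libraries (133 and 118 FPKM) than in the floxed ones (87.4 and 101 FPKM), the part from groups 9 to 13 is largest in floxed replicate 1 (237 FPKM), and HOXC is the thinnest layer in every library.

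Genes that mark other cell types and neighbouring tissues also differed between these libraries. In bulk tissue fewer cells of a type and less RNA per cell cannot be told apart. The 8 smooth muscle markers summed to 1825 and 1561 FPKM in the floxed libraries and 2907 and 2602 FPKM in the Cre libraries, and 8 of 8 were higher without overlap, where 27.5% of all genes with at least 10 counts were higher and 21.3% lower without overlap. The 6 mesothelium markers summed to 39.4 and 23.0 against 64.6 and 47.4 FPKM (5 of 6 higher). The 6 oviduct and ovary markers measured among the 8 named summed to 6.29 and 28.3 against 81.0 and 282 FPKM (5 of 6 higher). The oviduct glycoprotein Ovgp1 alone stood at 0.489 and 23.4 FPKM in the floxed libraries and at 56.0 and 243 FPKM in the Cre libraries. Ovgp1 was higher in replicate 2 of each group. The HOX members were not alike in this. Hoxa5 was higher in replicate 2 of each group, at 1.02 and 1.49 FPKM floxed and 4.43 and 5.53 FPKM Cre. Hoxc4, Hoxc5 and Hoxc8 were higher in replicate 2 in the Cre pair and lower in replicate 2 in the floxed pair. Hoxa6 and Hoxb4 were higher in replicate 2 in the floxed pair alone.

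The 7 markers of the squamous lining of cervix and vagina summed to 2.55 and 0.905 FPKM in the floxed libraries and to 26.6 and 3.41 FPKM in the Cre libraries, and Krt5, a basal keratin, stood at 0.0397 and 0 against 9.59 and 0.235 FPKM. Krt14 and Krt13 were also highest in Cre replicate 1, at 6.77 and 9.78 FPKM. The other 4 were not: Krt4 and Ivl were highest in floxed replicate 1, at 0.511 and 1.09 FPKM, Trp63 in floxed replicate 2, at 0.347 FPKM, and Dsg3 in Cre replicate 2, at 0.140 FPKM. The 6 leukocyte markers summed to 112 and 101 against 40.7 and 45.1 FPKM. Without overlap, 6 of 6 were lower, beside 21.3% of all genes with at least 10 counts. Endothelium markers summed to 101 and 71.7 against 67.6 and 75.2 FPKM. None of the markers measured was at 0 in all libraries, and the part of these tissues in the HOX differences was not tested.

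**Figure D4:**
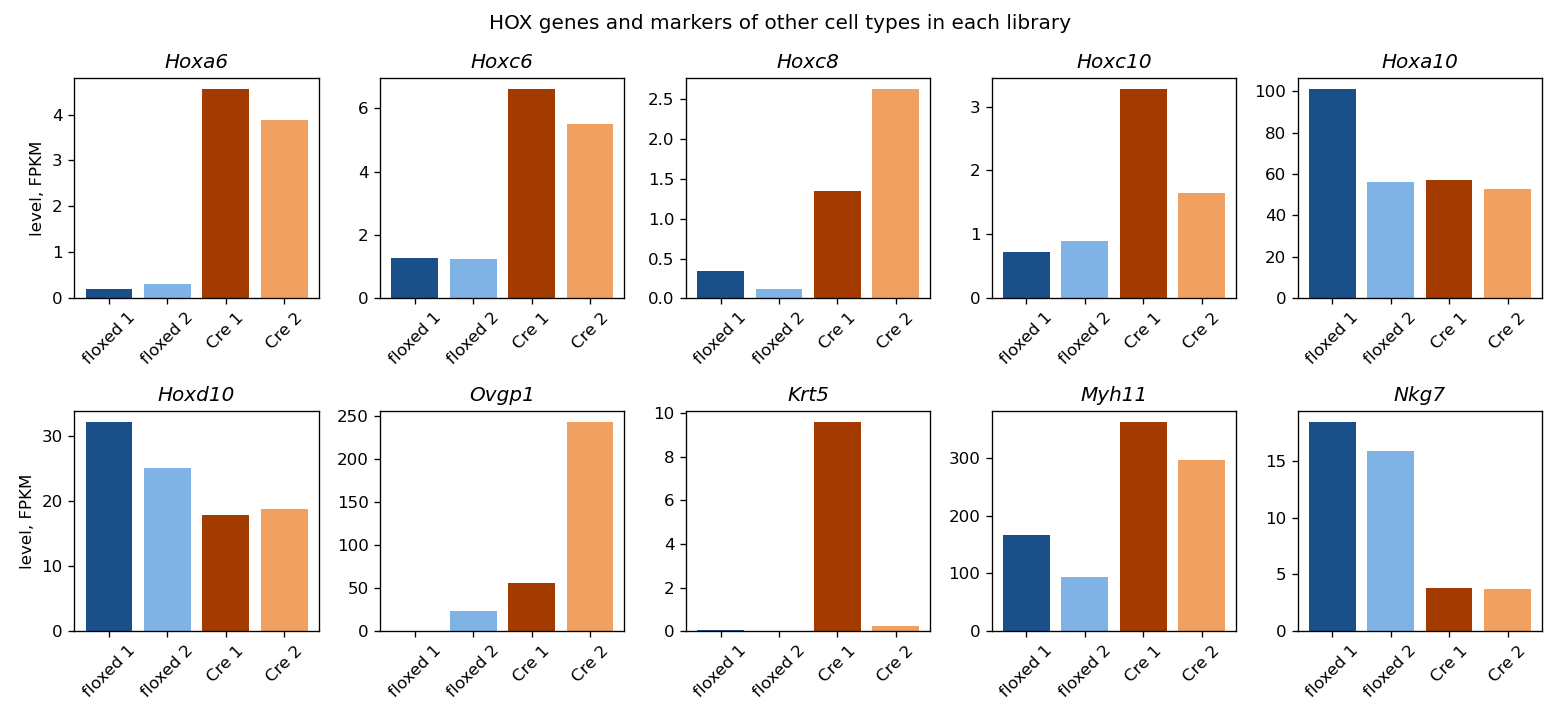
Level in FPKM of 6 HOX genes and 4 markers in each library, with a separate linear axis from 0 in each panel. Hoxa6 and Hoxc6 are alike in the 2 Cre libraries (4.56 and 3.87, and 6.62 and 5.5 FPKM), Ovgp1 is highest in Cre replicate 2 (243 FPKM) and Krt5 in Cre replicate 1 (9.59 FPKM); Myh11 marks smooth muscle and Nkg7 cytotoxic lymphocytes.

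Noncoding and other genes inside or beside the clusters were mostly scarce. Of 19 such genes, 6 reached the minimum level, and unadjusted p-values under 0.05 were found for 1 that was higher and 1 that was lower (7.3% and 6.58% of all genes tested). Gm11536, annotated as antisense in HOXB, had 12 and 11 counts in the floxed libraries and 36 and 25 in the Cre libraries. The lower gene was Hoxa11os. Hoxd3os1 had 87 and 108 against 129 and 131 counts, a log2 fold change of 0.52, and Hoxb5os overlapped between groups at 45 and 72 against 147 and 60 counts. Gm14396 and Gm28793, both in HOXD, overlapped as well, at 43 and 14 against 16 and 8 counts and at 21 and 6 against 4 and 6 counts. In the low part of HOXA, Hoxaas2 had 7 and 1 against 42 and 17 counts and Hoxaas3 had 8 and 5 against 25 and 14, so both were higher without overlap of the groups. Hoxaas2 shares exon bases with Hoxa3, and Hoxaas3 with Hoxa3 and Hoxa7. Hotair, a noncoding RNA just outside the span of the HOXC members analysed here, had 12 and 6 against 8 and 4 counts. Hottip, beside HOXA, had 1 count in all.

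The cofactors of HOX proteins showed no difference that passed the test. TALE homeodomain proteins (PBX, MEIS and PKNOX) bind DNA together with HOX proteins. Of 9, 8 were tested, and 0 reached an unadjusted p under 0.05 in either direction (7.3% of all genes tested higher and 6.58% lower). Their median log2 fold change was 0.039. Pknox2, Pbx3 and Meis2 had log2 fold changes of 0.36, 0.12 and 0.054.

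Polycomb genes, which keep HOX genes silent, and trithorax genes, which keep them active, were measured from lists. Of 16 Polycomb genes 0 reached an unadjusted p under 0.05 in either direction (7.3% of all genes tested higher and 6.58% lower). The median over the 16 was -0.024. The 4 of smallest p were Bmi1 at 0.68, Phc3 at 0.87, Ezh2 at -0.81 and Cbx2 at -0.76 on the log2 scale. Ezh2, the enzyme that places the repressive H3K27 methyl mark, stood at 5.75 and 2.86 against 2.11 and 2.76 FPKM, so floxed replicate 2 was near the Cre libraries. Of 11 trithorax and demethylase genes 1 had an unadjusted p under 0.05 as a higher gene and 0 as a lower gene (7.3% and 6.58% of all genes tested), with a median of 0.24. That gene was Kmt2a, the H3K4 methyltransferase that maintains HOX expression, at 8.45 and 3.09 FPKM in the floxed libraries and 15 and 15.6 FPKM in the Cre libraries (log2 fold change 1.43, adjusted p 0.294). Both Cre libraries were higher, and the floxed libraries differed from each other. Kmt2b, Ash1l and Ash2l, next by p, had 0.70, 0.92 and -0.33.

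Genes that form the Müllerian duct or were tied to HOXA10 or HOXA11 in the uterus showed separate directions. Of 9 duct genes 7 were tested, and by unadjusted p under 0.05 there were 2 lower and 0 higher (6.58% and 7.3% of all genes tested). Wnt7a, an epithelial ligand needed to keep uterine HOX expression, stood at 41.2 and 36.2 FPKM in the floxed libraries and at 11.1 and 12.3 FPKM in the Cre libraries. The groups were far apart, with a log2 fold change of -1.72 and an adjusted p of 0.0982. Wnt4, which acts in the stroma, stood at 15.7 and 18.4 against 9.16 and 7.04 FPKM (-1.08, adjusted p 0.181). Pax2 and Emx2 followed with 0.44 and 0.30. Emx2, a gene that HOXA10 represses, stood at 26.1 and 28.2 against 35.7 and 31.6 FPKM. Of the 5 genes measured among the 6 tied to HOXA10 or HOXA11, 1 was higher and 0 lower at that limit, beside the same 7.3% and 6.58%. That gene was Itgb3, an integrin chain induced by HOXA10 in endometrial cells, at 4.40 and 3.89 against 12.3 and 9.78 FPKM (1.42, adjusted p 0.111). Ptger4 and Ptger3, prostaglandin receptors, had -0.31 and 0.89, and Ptger3 was low only in floxed replicate 2, at 9.28 and 2.00 against 9.98 and 10.6 FPKM.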

How the data were processed

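RNA of 4 libraries was analysed, 2 labelled floxed and 2 labelled Cre. Per the submitters' processing notes, HISAT2, HTSeq 0.13.5 and the build GRCm38 were used; the sources used here give no settings or use of strand. The deposited tables hold, per the file headers, a read count and an FPKM for each gene, and the FPKM equals the count per gene length and per total count (lengths within 1e-06 across libraries for 23463 of 23463 genes). Lengths matched merged exons of GENCODE mouse release 21, the source of exon overlaps, within 0.1% for 98.3% of genes.

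Counts were tested with edgeR 4.0.16 in R 4.3.3 by quasi-likelihood with TMM scaling and a group term alone, leaving 2 residual degrees of freedom. The 13513 genes whose mean FPKM reached 1 were tested, with p-values adjusted by Benjamini-Hochberg over all of them. P-values are two-sided. CPM uses TMM-scaled totals. SE was the log2 fold change divided by the root of the F statistic. Counting intervals are exact binomial and cover counting error only. The procedure was tested on simulated data.

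The members and lists were chosen with earlier results of these data known. Values per library are given for the 12 highest members, those at an unadjusted p under 0.05 and, chosen after their values were seen, the others named, as were the bands of paralog groups, the markers singled out and the promoters. RefSeq promoters matched 20 of the 34 members. For lists, the 4 genes of smallest p are named. A member and a listed gene, counted in the totals, are not reported here by name or in plots of single genes. Alternatives were the filter, scaling, DESeq2 1.42.0, limma 3.58.1 on log2(FPKM + 1) or log2(FPKM + 0.1), the replicate number as a block, and each library left out.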

Additional observations from a re-analysis of the deposited data

How the results depend on the processing

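The spread between 2 libraries a group, and above all between the floxed libraries, limits these results. Over all genes at an adjusted p under 0.05, DESeq2 called 843 and limma on log2(FPKM + 0.1) called 4. With a filter of mean FPKM 5 edgeR called 1, and with no filter 1928 (7.04% of 27379). The reported edgeR fit called 0, though 1876 of its 13513 genes (13.9%) were at an unadjusted p under 0.05. With libraries left out it called from 0 to 4249 (4249 without floxed replicate 1, 2942 without floxed replicate 2, 0 without either Cre library, the lone library being assumed to vary like the pair). Hoxa5, Hoxa6, Hoxc6 and Hoxc8 passed an adjusted p of 0.05 in the same 4 of 12 settings, the reported one counted: DESeq2 (0.0049, 0.00021, 8.2e-06 and 0.0034), no filter, and either floxed library left out. With either Cre library left out none of them passed. Apart from Hoxa3, Hoxc4 and Hoxc5, the other named members that passed did so only with a floxed library left out. In those settings the most genes over all genes were called as well, so passing there is not particular to these members. Among lower ones, Hoxc11 passed with either left out, Hoxd9 without floxed replicate 1, and Hoxa10, Hoxa11 and Hoxd10 without floxed replicate 2. Among higher ones, Hoxa7 passed without floxed replicate 1, and Hoxb6 and Hoxc10 without floxed replicate 2. Hoxd11 passed with either left out, in opposite directions. With no filter Hoxa3, Hoxc4 and Hoxc5 passed as well. In the settings with a minimum mean of 1 FPKM, Hoxa6, Hoxa7, Hoxc8 and Hoxc10 were tested through the Cre libraries alone. Hoxc11 was tested through the floxed libraries alone. These members had to differ to be tested there, so passing in those settings lends them no support.

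The members higher at an unadjusted p under 0.05 numbered 6 in the reported fit (28.6%, beside 7.3% of all genes tested). They numbered 0 with a filter of mean FPKM 5, which tests only 10 members. The lower ones numbered 2 in the reported fit (9.52%, beside 6.58%). They numbered 1 with that filter, 1 with limma on log2(FPKM + 0.1) and 4 with no filter. With the replicate number as a block the lower ones numbered 1 and the higher ones 4. The share of all genes by direction was taken from the reported fit alone, so the counts in other settings only describe the members. Same-numbered libraries did not deviate together (correlation -0.083), so the numbers were not taken as pairs. The median log2 fold change of 0.34 was -0.13 with the filter of mean FPKM 5, 0.14 over members at the minimum in both groups, and 0.12 to 0.52 with a library left out.

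The log2 ratio of the HOXA sum, -0.27, was 0.11 without floxed replicate 1, and ran from -0.66 to 0.11 with a library left out. The HOXC ratio of 1.49 was 1.11 without Hoxc6. Hoxb8 turned from 0.015 to -0.042 with no filter and ran from -0.17 to 0.22 with a library left out, Hoxb7 from -0.19 to 0.0098, Hoxd8 from -0.16 to 0.42 and Hoxd11 from -0.81 to 0.79. The cause of these shifts was not tested.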
